A study of Homo sapiens with 18 samples.

Results

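The genes for the collagen chains are described here in ARPE-19 cells, a human cell line that arose spontaneously from retinal pigment epithelium (RPE). The members are all genes whose symbol reads COL, a number, A and a number. The count files list 43 such genes among 23411 gene symbols, and 21 of them had at least 10 counts in at least 3 of the 18 RNA-seq libraries. COL26A1 is listed under its older symbol EMID2, which the rule does not match, and it stayed at or below 0.365 CPM (read counts scaled to a common library size) in each library. The 18 libraries form 6 groups of 3, namely control and NRF2 ΔC cells, each left untreated (water as vehicle), given 1 mM NACET (N-acetylcysteine ethyl ester) or given 0.2 mM H2O2. The controls had received the Cas9 vector with no guide RNA. NRF2 ΔC cells are a single CRISPR/Cas9 clone with both copies of NFE2L2, the gene for the oxidative stress regulator NRF2, truncated by an edit in the last exon. A difference between the lines is therefore also a difference between a clone and a transduced culture, and these cannot be told apart. The sample labels give 2 h of treatment after 22 h in 1 % serum, whereas the series' design text gives 8 h of treatment after 40 h in 10 % serum. NFE2L2 RNA lay between 102 and 149 CPM in all 18 libraries, and since the edit shortens the protein this level does not check it. The labels number the replicates without saying that they are separate cultures, so p-values measure the spread between these samples, which may be technical.

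Collagens are the main structural proteins of the extracellular matrix. Their chains wind together into a helix, and each type has its own set of partner chains. Fibrillar types form fibrils, type IV forms the sheet of basement membranes such as the one the RPE lays down on Bruch's membrane, FACIT collagens sit on fibril surfaces, and type VIII forms short networks. Chains are hydroxylated and folded in the endoplasmic reticulum, trimmed outside the cell, cross-linked by lysyl oxidases and degraded by collagenases.

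Between 16673306 and 25951154 reads per library fell on genes. Collagen genes took between 0.202 % and 0.694 % of them. This share was 0.550 % ± 0.137 (SD, n = 3) in untreated control cells, 0.457 % ± 0.117 with NACET and 0.379 % ± 0.0843 with H2O2. The share in NRF2 ΔC cells was 0.451 % ± 0.120 untreated, 0.355 % ± 0.105 with NACET and 0.267 % ± 0.0890 with H2O2. Treated and untreated groups of the same line overlapped in these shares, but each treated library was below the untreated library of its line with the same number. The lines overlapped in each condition. The library numbered 1 had the highest share in each of the 6 groups.

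Expression was concentrated in a few genes. All 6 type IV genes were detected by the rule of 10 counts, as were both multiplexins (COL15A1, COL18A1), type VII (COL7A1) and 2 of 3 short-chain genes (COL8A1, COL8A2). Of the 11 fibrillar genes 6 were detected (COL1A1, COL5A1, COL5A2, COL11A1, COL11A2, COL27A1), of the 10 FACIT genes 3 (COL9A2, COL12A1, COL16A1) and of the 5 type VI genes 1 (COL6A1). None of the 4 transmembrane collagen genes was detected. The 5 genes with the most counts held 83.5 % of all 1573660 collagen counts, whereas the 22 genes below the rule held 455 counts or 0.0289 %. In those 22 genes no library had more than 14 counts, and COL19A1 had none in any library. At these depths a count of 0 allows up to between 0.116 and 0.180 CPM, for counting error only.

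Per kilobase of the canonical transcript, COL12A1, a FACIT collagen, had the highest level in untreated control cells, at 203 ± 44.6 CPM per kb (SD, n = 3). It lay above the next gene in all 3 libraries. COL18A1, the source of endostatin, followed with 108 ± 18.1, then COL11A1 with 92.4 ± 32.4, COL8A1 with 90.2 ± 21 and COL4A2 with 80.3 ± 18.6. These 4 neighbours overlapped between libraries. COL4A1 (47.3 ± 18.0), COL5A2 (27.1 ± 9.18), COL1A1 (18.8 ± 10.2) and COL6A1 (12.3 ± 2.16) formed the next steps, each overlapping with its neighbour. COL4A4, COL5A1, COL4A5, COL27A1 and COL4A3 lay between 3.89 and 7.98 CPM per kb, and each overlapped with the next in this order, while all libraries of COL4A4 were above those of COL27A1 and COL4A3. COL9A2, COL7A1 and COL16A1 were lower, at 2.55, 1.68 and 1.00 CPM per kb, and did not overlap with one another. COL4A6, COL8A2, COL15A1 and COL11A2 had means of 0.495 CPM per kb or less.

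**Figure D1:**
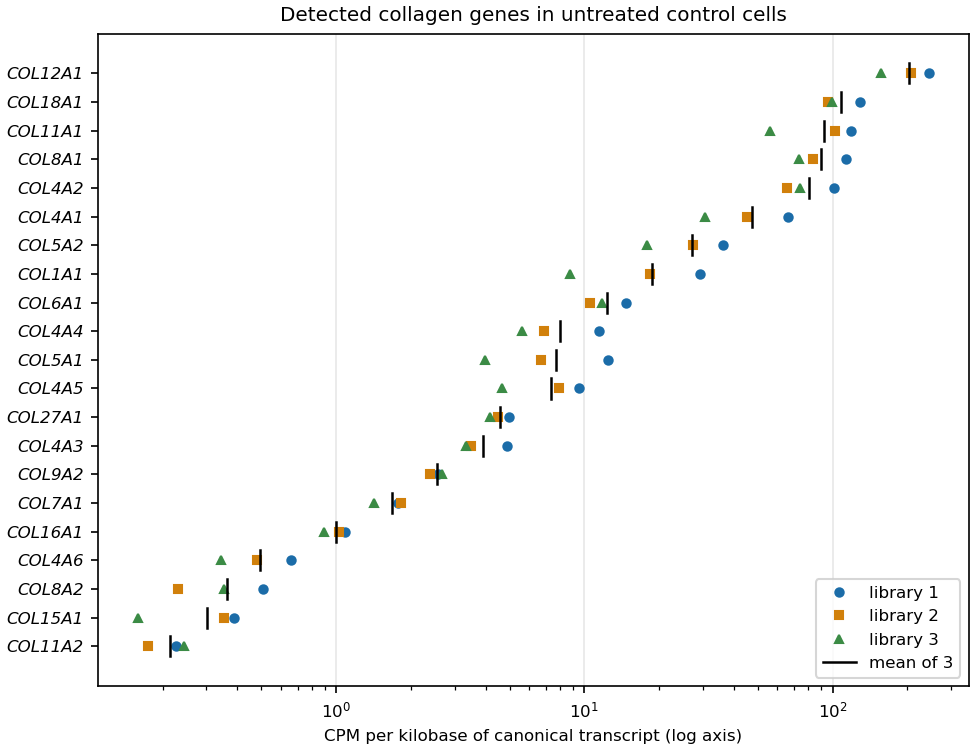
Levels of the 21 detected collagen genes in the 3 untreated control libraries, as CPM per kilobase of canonical transcript on a log axis, with a bar at the mean of 3. COL12A1 (mean 203) stands above the other genes in each library, and levels run down to 0.215 for COL11A2.

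Several chains lacked RNA for the chain they are known to pair with. COL1A1 had 30785 counts over the 18 libraries, and COL1A2, the other chain of type I collagen, had 1 count. COL6A1 had 17667 counts, against 40 for COL6A2 and 5 for COL6A3, the other chains of common type VI collagen. COL9A2 was detected, whereas COL9A1 and COL9A3 stayed at or below 4 and 3 counts in any library. In contrast, both chains of the type IV pairs were present, as were COL5A1 (17817 counts) and COL5A2 (43738 counts). COL3A1, which lies 19.2 kb from COL5A2 in a tail-to-tail arrangement, had 47 counts. In untreated control cells the ratio of COL4A1 to COL4A2 per kb was 0.586 ± 0.151, that of COL4A4 to COL4A3 was 2.01 ± 0.331 and that of COL4A5 to COL4A6 was 14.8 ± 1.47 (SD, n = 3). COL8A1 stood 265 ± 86.5 times above COL8A2 per kb, and COL11A1 stood 447 ± 190 times above COL11A2.

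The type IV genes lie in head-to-head pairs that start next to each other on opposite strands. In GRCh37, the assembly that hg19 names, GENCODE v44 places COL4A4 at chr2:227867430-228029169 on the minus strand and COL4A3 at chr2:228029340-228179508 on the plus strand. COL4A6 is at chrX:107398837-107682727 (minus) and COL4A5 at chrX:107683068-107940775 (plus), and COL4A1 at chr13:110801310-110959504 (minus) and COL4A2 at chr13:110958159-111165556 (plus). The start windows of the pairs in which a gene differed between the cell lines are shown, from 250 bases before to 50 after the RefSeq start in GRCh38.p14, each on its gene's strand. Capitals mark the bases that both windows of a pair cover, 82 for COL4A3 and COL4A4 and 121 for COL4A5 and COL4A6, so that the same bases appear in reverse complement in the partner. The windows are chr2:227164374-227164673 (plus), chr2:227164156-227164455 (minus), chrX:108439588-108439887 (plus) and chrX:108439409-108439708 (minus).
COL4A3: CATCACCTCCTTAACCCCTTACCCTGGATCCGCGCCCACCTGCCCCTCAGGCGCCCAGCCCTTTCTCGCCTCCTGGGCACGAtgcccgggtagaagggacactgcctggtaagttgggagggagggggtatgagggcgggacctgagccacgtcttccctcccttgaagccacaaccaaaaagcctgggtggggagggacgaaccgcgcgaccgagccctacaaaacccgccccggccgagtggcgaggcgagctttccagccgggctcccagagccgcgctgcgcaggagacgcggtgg
COL4A4: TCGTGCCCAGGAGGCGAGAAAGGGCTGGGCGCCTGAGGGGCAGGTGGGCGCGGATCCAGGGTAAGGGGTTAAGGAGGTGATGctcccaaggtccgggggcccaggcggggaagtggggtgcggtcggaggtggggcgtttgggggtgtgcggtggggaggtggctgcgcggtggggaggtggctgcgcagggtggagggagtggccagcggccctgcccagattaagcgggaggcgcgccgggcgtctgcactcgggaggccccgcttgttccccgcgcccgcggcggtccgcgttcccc
COL4A5: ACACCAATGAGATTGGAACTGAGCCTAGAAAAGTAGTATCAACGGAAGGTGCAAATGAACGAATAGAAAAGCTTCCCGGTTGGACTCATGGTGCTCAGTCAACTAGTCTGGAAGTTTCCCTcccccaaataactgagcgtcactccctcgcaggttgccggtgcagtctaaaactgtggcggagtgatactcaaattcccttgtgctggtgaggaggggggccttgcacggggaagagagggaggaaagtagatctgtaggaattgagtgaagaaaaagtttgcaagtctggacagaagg
COL4A6: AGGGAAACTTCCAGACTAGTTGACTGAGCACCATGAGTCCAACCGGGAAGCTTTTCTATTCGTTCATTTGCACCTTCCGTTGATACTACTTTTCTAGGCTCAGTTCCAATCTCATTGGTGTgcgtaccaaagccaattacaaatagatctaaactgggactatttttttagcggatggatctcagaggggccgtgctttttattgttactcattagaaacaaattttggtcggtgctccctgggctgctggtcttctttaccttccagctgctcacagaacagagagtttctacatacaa
The core of the antioxidant response element that NRF2 is known to bind (TGACNNNGC, either strand) is in the shared bases of COL4A5 and COL4A6 as TGACTGAGC on the COL4A6 strand, 230 bases before that gene's start. It is not in the windows of COL4A3 and COL4A4. Of the 43 collagen genes 31 have a RefSeq window in the table used, 17 of them detected, and among these 17 the core is in 2, the overlapping windows of COL4A5 and COL4A6. It is in 13.6 % of all 27305 windows. The GC box GGGCGG is in 13 of the 17 windows of detected genes, in 5 of the 14 windows of genes not detected and in 44.6 % of all windows. The median GC content was 71.7 % in the windows of detected genes, 61.2 % in those not detected and 58.3 % over all. The AP-1 site TGANTCA is in none of the 31 windows and in 7.76 % of all. A match of letters is a description and not evidence of binding.

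The first question was which collagen genes differed between NRF2 ΔC and control cells. In untreated cells 5 of the 21 collagen genes tested were lower in NRF2 ΔC cells and none was higher, where a call needed an adjusted p under 0.05 (edgeR's quasi-likelihood test, Benjamini-Hochberg) and a log2 difference of 0.6 or more in either direction. Of all 13710 genes tested 3.12 % were lower and 0.729 % higher by the same limits. The 5 were COL4A3, COL4A4, COL4A6, COL15A1 and COL16A1. The median log2 fold change of the 21 was -0.32 with 17 below 0, against a median of 0.01 and 47.5 % below 0 over all genes. With NACET 4 of 20 were lower (COL4A3, COL4A4, COL4A6, COL16A1; background 3.86 %) and none was higher (0.895 %). With H2O2 the same 4 of 21 were lower (4.2 %) and COL7A1 was higher (1.41 %). The 3 comparisons used separate libraries but the same clone.

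COL4A3 and COL4A4 encode chains of the specialised type IV network that is mutated in Alport syndrome. COL4A3 was at 39.0, 28.1 and 26.7 CPM in untreated control cells and at 13.8, 7.83 and 12.2 CPM in NRF2 ΔC cells. With NACET it was at 30.3, 21.3 and 19.1 against 9.54, 6.90 and 8.44 CPM, and with H2O2 at 18.8, 13.2 and 13.7 against 4.60, 1.97 and 3.96 CPM. In each condition all 3 NRF2 ΔC libraries were below all 3 control libraries. The log2 fold changes were -1.48 ± 0.24 (SE, adjusted p = 0.0102) untreated, -1.51 ± 0.21 (adjusted p = 0.00589) with NACET and -2.12 ± 0.30 (adjusted p = 0.00343) with H2O2. Exons of COL4A3 share 6.8 % of their bases with MFF-DT on the other strand, and counting ignored strand.

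COL4A4 followed the same order of groups. Untreated it was at 114, 68.6 and 56.2 CPM in control cells and at 33.9, 21.6 and 25.7 CPM in NRF2 ΔC cells. It was at 72.3, 47.8 and 34.7 against 22.0, 14.0 and 16.2 CPM with NACET, and at 56.2, 34.8 and 26.0 against 12.9, 6.96 and 10.3 CPM with H2O2. The lines did not overlap in any condition. The log2 fold changes were -1.56 ± 0.28 (adjusted p = 0.0171), -1.57 ± 0.29 (adjusted p = 0.019) and -1.95 ± 0.31 (adjusted p = 0.00633). The first passed no longer without control replicate 2 (-1.66) or NRF2 ΔC replicate 2 (-1.41) or 3 (-1.51), and the second without the same numbers under NACET (-1.62, -1.42 and -1.50). The ratio of COL4A4 to COL4A3 per kb stayed within 1.46 and 2.85 over the 18 libraries, so both genes of this pair were low together.

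The pair COL4A5 and COL4A6 came apart. COL4A6, a chain of smooth muscle and skin basement membranes, was at 4.40, 3.22 and 2.30 CPM in untreated control cells and at 0.781, 0.587 and 0.602 CPM in NRF2 ΔC cells, or 50 to 100 counts against 13 to 16. The log2 fold change was -2.34 ± 0.32 (adjusted p = 0.00467) untreated, -1.87 ± 0.25 (adjusted p = 0.00425) with NACET and -1.55 ± 0.25 (adjusted p = 0.00645) with H2O2. Again no NRF2 ΔC library reached the lowest control library of its condition. COL4A5 was at 62.3, 51.7 and 30.5 CPM in untreated control and 52.8, 29.9 and 23.4 CPM in NRF2 ΔC cells, and these overlapped (log2 fold change -0.44 ± 0.34, adjusted p = 0.658). The ratio of COL4A5 to COL4A6 per kb was 53.7 ± 14.8 in untreated NRF2 ΔC cells (SD, n = 3) against 14.8 ± 1.47 in control cells, with the lowest of the former (39.8) above the highest of the latter (16.4).

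For COL4A1 and COL4A2, the chains of the ubiquitous basement membrane network, no difference between the lines passed with every library and no block. With H2O2 COL4A1 was called lower in a fit blocked on the replicate number, where 8.17 % of all genes were called lower. Without NRF2 ΔC H2O2 replicate 1 it was called too, among 2416 of all 13739 genes. COL4A1 was at 434, 295 and 200 CPM in untreated control cells and at 273, 195 and 146 CPM in NRF2 ΔC cells (log2 fold change -0.60 ± 0.31, adjusted p = 0.464). COL4A2 was at 652, 422 and 478 against 423, 462 and 388 CPM (-0.29 ± 0.18, adjusted p = 0.545). Both overlapped between the lines. In the plot of the 3 type IV pairs, NRF2 ΔC libraries are thus displaced on both axes for one pair, on one axis for another, and intermixed with control libraries for COL4A1 and COL4A2.

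**Figure D2:**
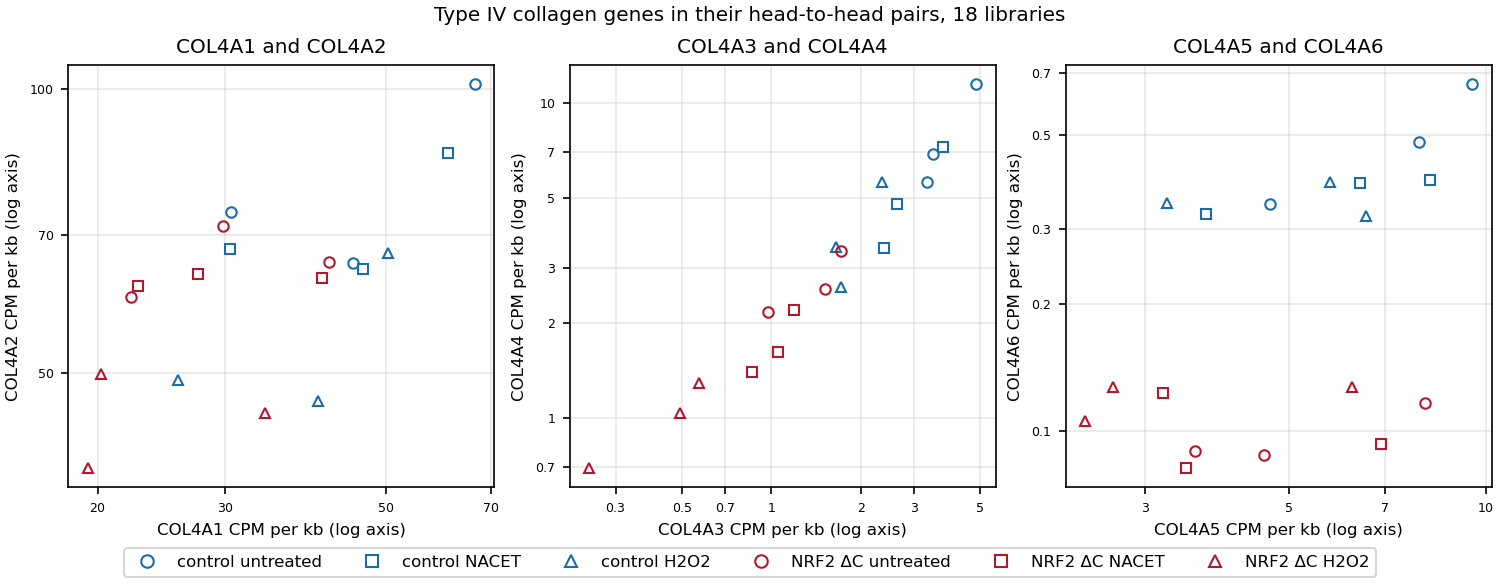
Type IV collagen genes plotted against their head-to-head partner in the 18 libraries, as CPM per kilobase on log axes, with control cells in blue, NRF2 ΔC cells in red and a symbol for each treatment. COL4A3 and COL4A4 run along one line with a ratio of 1.46 to 2.85, whereas COL4A6 separates the cell lines and COL4A5 does not.

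COL16A1, a FACIT collagen, had the largest difference between the untreated lines among the members. It was at 5.90, 5.56 and 4.83 CPM in control cells and at 0.634, 1.13 and 0.463 CPM in NRF2 ΔC cells (log2 fold change -2.84 ± 0.31, adjusted p = 0.00134). With NACET the difference was -1.68 ± 0.20 (adjusted p = 0.00254) and with H2O2 -2.30 ± 0.31 (adjusted p = 0.00267). COL16A1 was called in every condition and under each of the 12 alternatives tried per condition, as were COL4A3 and COL4A6. With H2O2, however, COL16A1 entered the test between the lines through its control libraries. It had 66, 91 and 57 counts there and 14, 9 and 22 counts in NRF2 ΔC cells. COL15A1, a multiplexin of basement membrane zones, was low in both lines. It had 46, 38 and 18 counts (2.02, 1.85 and 0.828 CPM) in untreated control cells and 9, 4 and 5 counts (0.439, 0.157 and 0.231 CPM) in NRF2 ΔC cells, which gave -2.52 ± 0.49 (adjusted p = 0.0244). Its call was lost without control replicate 1 (-2.28) or 2 (-2.39) or NRF2 ΔC replicate 2 (-2.21) or 3 (-2.41). With H2O2 it was -1.81 ± 0.51 (adjusted p = 0.0735), and with NACET it was too low to be tested in the fit of those 2 groups. In 1 fit of all 18 samples it was tested with NACET and called. COL15A1 entered the test through its control libraries.

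COL7A1, the anchoring fibril collagen, differed between the lines in H2O2. It was at 34.1, 40.6 and 33.9 CPM in NRF2 ΔC cells with H2O2 and at 13.5, 22.1 and 16.0 CPM in control cells with H2O2, so that each NRF2 ΔC library was above each control library (log2 fold change 1.07 ± 0.19, adjusted p = 0.00974). This call did not hold without NRF2 ΔC replicate 2 (0.98), and without NRF2 ΔC replicate 1 the count of collagen genes called with H2O2 rose from 5 to 12. Calls over all genes rose as well, from 763 of 13580 tested to 2416 of 13739. Untreated COL7A1 did not pass, with 16.4, 16.9 and 13.2 against 22.7, 17.7 and 12.0 CPM (0.18 ± 0.23, adjusted p = 0.813).

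The abundant collagens did not pass between the untreated lines with every library and no block. COL5A2 was called lower with a block on the replicate number, where 4.83 % of all genes were called lower. Without NRF2 ΔC untreated replicate 1 it was called too, among 901 of all 13885 genes. COL12A1 was at 2873, 2430 and 1832 CPM in untreated control and 2527, 1595 and 1597 CPM in NRF2 ΔC cells (-0.32 ± 0.24, adjusted p = 0.65). With H2O2 it was at 1831, 1570 and 1210 against 1322, 603 and 790 CPM (-0.77 ± 0.28, adjusted p = 0.142), and without NRF2 ΔC replicate 1 it was called, as were COL4A1, COL4A5, COL5A1, COL5A2, COL11A1 and COL15A1. That fit called 2416 of all 13739 genes tested, against 763 of 13580 with every library. COL18A1, whose exons share 18.5 % of their bases with SLC19A1 on the other strand, was at 697, 519 and 537 against 683, 647 and 403 CPM (-0.02 ± 0.22). COL8A1 was at 627, 461 and 404 against 505, 400 and 367 CPM (-0.23 ± 0.20). All 3 overlapped between the lines. COL11A1 (-0.13 ± 0.41), COL1A1 (-0.31 ± 0.39), COL5A1 (-0.42 ± 0.48), COL5A2 (-0.60 ± 0.37), COL6A1 (0.06 ± 0.17), COL9A2 (-0.03 ± 0.22) and COL27A1 (0.05 ± 0.12) likewise gave adjusted p of at least 0.557 in untreated cells. For COL11A1 the SE was large beside the difference, with untreated libraries at 867, 750 and 411 CPM in control cells and 1035, 425 and 383 CPM in NRF2 ΔC cells.

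**Figure D3:**
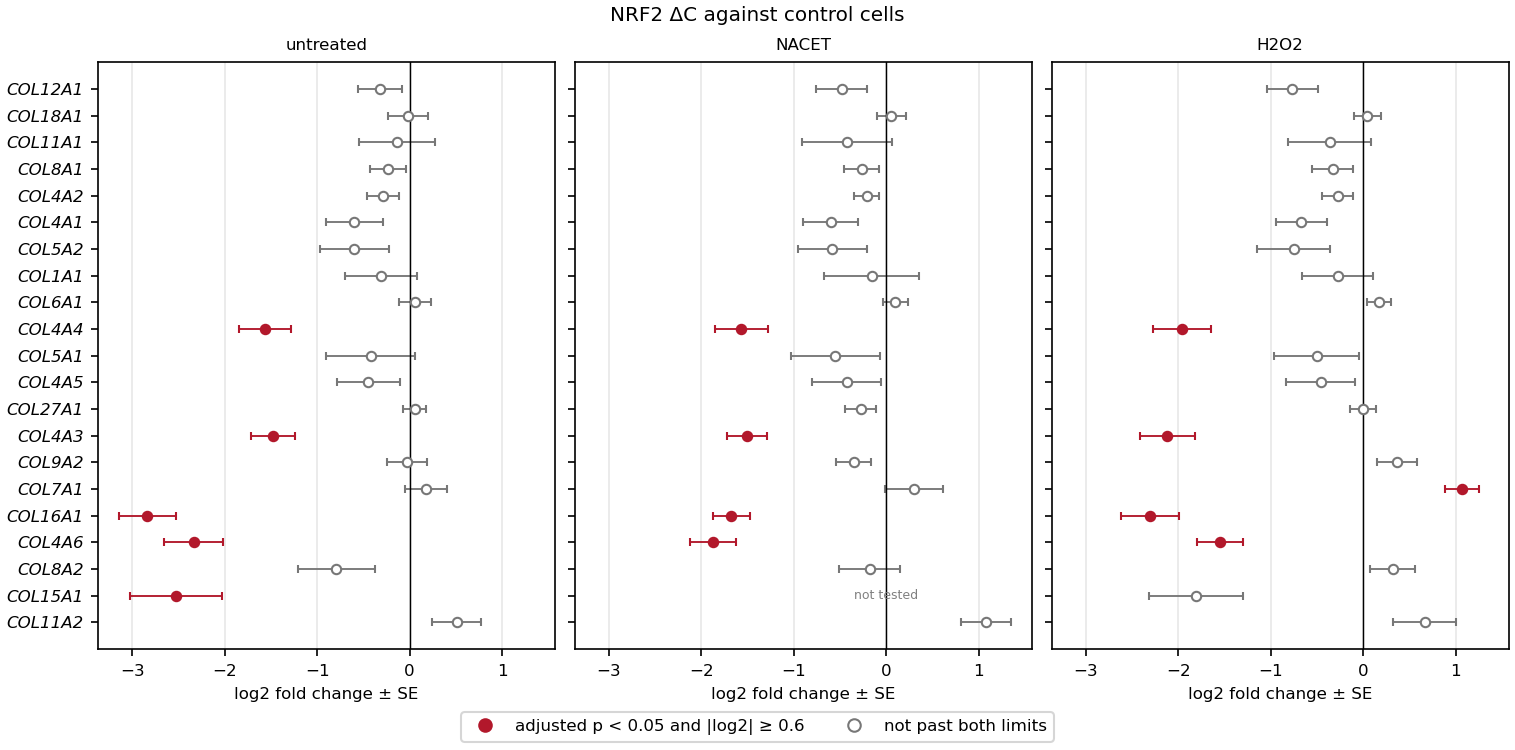
Log2 fold change (± SE) of NRF2 ΔC over control cells for the 21 detected collagen genes in untreated, NACET and H2O2 cells, ordered by level, with filled red points for genes past both limits. COL4A3, COL4A4, COL4A6 and COL16A1 lie between -2.84 and -1.48 in all 3 panels, and COL7A1 at 1.07 with H2O2.

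The second question was how the collagen genes responded to H2O2. In control cells 2 of 21 fell, COL4A3 and COL9A2, and none rose, against 3.37 % of all 13691 genes that fell and 2.96 % that rose. In NRF2 ΔC cells COL4A3 and COL4A4 fell and COL7A1 rose among 20 tested, against 5.55 % and 4.26 % of 13543 genes. Within a cell line same-numbered libraries deviated together, so a fit blocked on the replicate number was set beside this one. In that fit 10 of 21 fell in control cells (background 5.97 %) and none rose (4.26 %), and in NRF2 ΔC cells 7 of 20 fell (11.5 %) and 2 rose (7.26 %). All 3 same-numbered pairs were lower with H2O2 for 16 of 21 collagen genes in control cells (36 % of all genes) and for 12 of 20 in NRF2 ΔC cells (34.5 %). The median log2 fold change was -0.55 over the 21 in control and -0.47 over the 20 in NRF2 ΔC cells, with medians over all genes of -0.004 and -0.009.

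COL4A3 fell in both lines. In control cells it went from 39.0, 28.1 and 26.7 CPM to 18.8, 13.2 and 13.7 CPM (log2 fold change -1.02 ± 0.20, adjusted p = 0.0166), and in NRF2 ΔC cells from 13.8, 7.83 and 12.2 to 4.60, 1.97 and 3.96 CPM (-1.67 ± 0.33, adjusted p = 0.0174). Treated and untreated libraries did not overlap in either line. COL4A4 showed the same pattern, with -1.02 ± 0.33 (adjusted p = 0.0763) in control cells, where it passed with the block (adjusted p = 1.4e-09), with no filter on low counts and without untreated replicate 3 or H2O2 replicate 1, and -1.42 ± 0.25 (adjusted p = 0.0123) in NRF2 ΔC cells. COL4A3 was not called without control H2O2 replicate 2 (-0.92), nor in NRF2 ΔC cells without untreated replicate 3 (-1.60) or H2O2 replicate 2 (-1.38) or 3 (-1.76). COL4A4 was not called in NRF2 ΔC cells without H2O2 replicate 2 (-1.21).

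COL9A2, a FACIT chain, went from 7.35, 6.83 and 7.64 to 3.08, 4.11 and 4.71 CPM in control cells (-0.85 ± 0.18, adjusted p = 0.0209). The NRF2 ΔC libraries went from 8.24, 8.22 and 4.91 to 4.60, 5.04 and 5.79 CPM, which overlapped (-0.46 ± 0.24, adjusted p = 0.235). The call in control cells was lost without untreated replicate 1 (-0.83) or 2 (-0.90) or H2O2 replicate 1 (-0.71) or 2 (-0.87). COL7A1 rose in NRF2 ΔC cells from 22.7, 17.7 and 12.0 to 34.1, 40.6 and 33.9 CPM (1.05 ± 0.23, adjusted p = 0.0228). In control cells it was at 16.4, 16.9 and 13.2 untreated and 13.5, 22.1 and 16.0 CPM with H2O2 (0.17 ± 0.19, adjusted p = 0.582). The rise in NRF2 ΔC cells was not called without untreated replicate 2 (1.06) or 3 (0.85) or H2O2 replicate 2 (0.97) or 3 (1.11).

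Of the genes that the block added, 5 fell in both lines. In the blocked fit COL1A1 had -0.97 ± 0.05 in control and -0.98 ± 0.11 in NRF2 ΔC cells, COL5A1 -0.79 ± 0.06 and -0.88 ± 0.12, COL5A2 -0.69 ± 0.05 and -0.91 ± 0.10, COL11A1 -0.90 ± 0.04 and -1.21 ± 0.10, and COL12A1 -0.61 ± 0.04 and -1.11 ± 0.11. Each of these was lower with H2O2 in all 3 same-numbered pairs of both lines. The blocked fit compares these same pairs, so this describes the calls and is not separate support. The share of all genes that fell in both lines was not counted. The untreated control libraries of COL1A1, a chain of the type I collagen of bone and skin, ranged from 51.8 to 173 CPM, while its same-numbered log2 differences lay between -1.03 and -0.94. Without the block its log2 fold change in control cells was -0.99 ± 0.48 (adjusted p = 0.202). COL15A1 (-0.77 ± 0.27, adjusted p = 0.0254) and COL16A1 (-0.62 ± 0.14, adjusted p = 0.00196) also passed with the block in control cells. COL8A2, which lies outside the rule for named genes and was picked after its values were seen, rose in NRF2 ΔC cells with the block (1.22 ± 0.26, adjusted p = 6.07e-05), from 1.51, 0.861 and 0.602 to 2.70, 1.87 and 2.21 CPM.

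Some collagens stayed below the fold limit with H2O2 in either fit. In the fit with the block COL4A2 had -0.54 ± 0.05 in control and -0.55 ± 0.10 in NRF2 ΔC cells, COL4A5 -0.49 ± 0.06 and -0.56 ± 0.12, COL18A1 -0.49 ± 0.05 and -0.42 ± 0.10, COL8A1 -0.37 ± 0.05 and -0.49 ± 0.10, COL6A1 -0.41 ± 0.07 and -0.30 ± 0.11, and COL4A1 -0.25 ± 0.05 and -0.35 ± 0.10. All 6 had adjusted p below 0.05 with the block, and none was past the log2 limit of 0.6. Low p-values were common in this fit. Before adjustment, p was below 0.05 for 55 % of all genes in the control line and 52.6 % in the NRF2 ΔC line. COL27A1, a fibrillar collagen of cartilage, had -0.07 ± 0.08 and -0.14 ± 0.12.

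**Figure D4:**
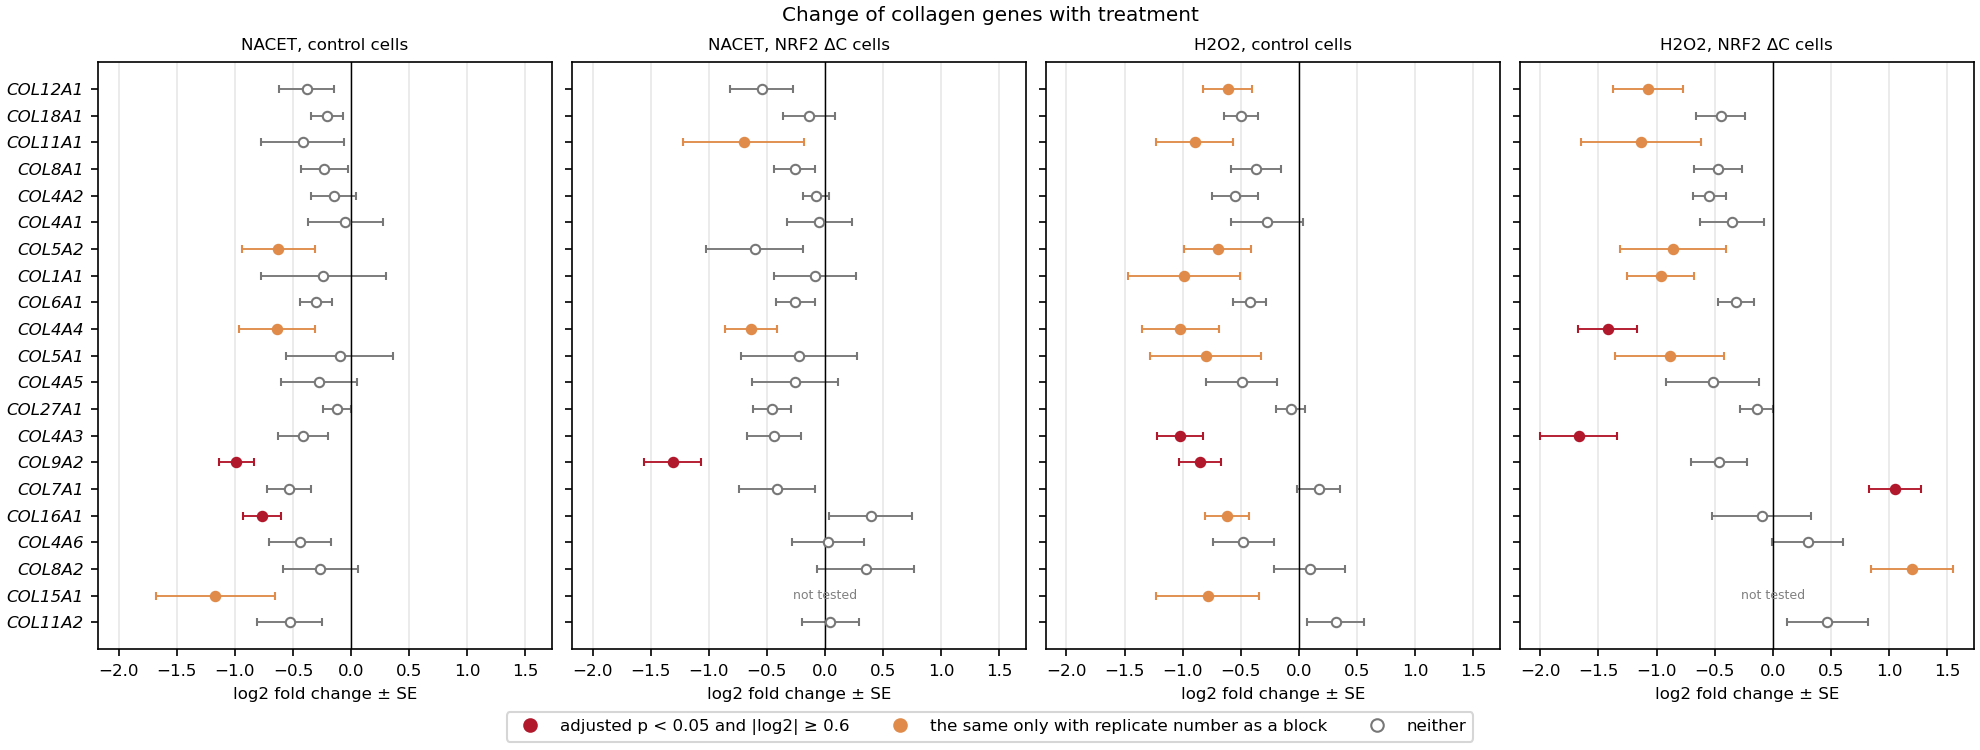
Log2 fold change (± SE, fit without the block) of treated over untreated cells for the detected collagen genes, with red points past both limits, orange points past them only when the replicate number is a block, and open points past them in neither fit. Most points lie below 0, and COL7A1 (red) and COL8A2 (orange) are above 0 in the panel of H2O2 in NRF2 ΔC cells.

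The same comparison was made for NACET. In control cells COL9A2 and COL16A1 fell among 21 tested and none rose, against 1.35 % of 13696 genes that fell and 1.39 % that rose. In NRF2 ΔC cells COL9A2 fell among 20 and none rose, against 0.93 % and 0.458 % of 13542 genes. The blocked fit had 5 that fell in control cells (3.84 %) and 3 in NRF2 ΔC cells (5.15 %), and none that rose (3.65 % and 3.67 %). All 21 fold changes in control cells were below 0 with a median of -0.38, against 51 % of all genes and a median of -0.006. In NRF2 ΔC cells 16 of 20 were below 0 with a median of -0.26, against 51 % and -0.007 over all genes. Between same-numbered libraries 18 of 21 were lower in all 3 pairs in control cells (30.8 % of all genes) and 12 of 20 in NRF2 ΔC cells (30.6 %).

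COL9A2 fell with NACET in both lines, to 3.88, 3.23 and 3.89 CPM in control cells (-0.99 ± 0.15, adjusted p = 0.0202) and to 3.04, 2.52 and 3.06 CPM in NRF2 ΔC cells (-1.31 ± 0.24, adjusted p = 0.0466). Treated and untreated libraries did not overlap in either line. In control cells the call was lost without untreated replicate 1 (-0.97), 2 (-1.04) or 3 (-0.95) or NACET replicate 1 (-1.04) or 2 (-0.91). The NRF2 ΔC call was lost without untreated replicate 1 (-1.18), 2 (-1.20) or 3 (-1.52) or NACET replicate 2 (-1.22) or 3 (-1.36). Most calls over all genes were lost in such fits too. Those that lost COL9A2 called 31 to 190 genes in control cells, against 376 with every library. In NRF2 ΔC cells they called 0 to 139, against 188. COL16A1 fell in control cells to 3.03, 3.17 and 3.39 CPM (-0.77 ± 0.16, adjusted p = 0.0446), and this call was lost whenever any 1 of the 6 libraries was left out, with values between -0.85 and -0.70. In NRF2 ΔC cells COL16A1 was at 0.634, 1.13 and 0.463 CPM untreated and 1.00, 1.04 and 0.958 CPM with NACET (0.39 ± 0.36, adjusted p = 0.62).

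The block added COL4A4 in both lines (-0.63 ± 0.07 and -0.65 ± 0.09), COL5A2 (-0.63 ± 0.06) and COL15A1 (-1.15 ± 0.28) in control cells and COL11A1 (-0.76 ± 0.07) in NRF2 ΔC cells. COL5A2 in NRF2 ΔC cells (-0.60 ± 0.07) and COL11A1 in control cells (-0.43 ± 0.06) stayed short of the log2 limit. COL12A1 had -0.39 ± 0.07 and -0.56 ± 0.07, COL4A3 -0.42 ± 0.08 and -0.43 ± 0.11, and COL7A1 -0.54 ± 0.10 and -0.44 ± 0.11 with the block. COL7A1 was below its untreated level in all 3 same-numbered pairs of both lines with NACET, short of the log2 limit. COL4A1 had -0.03 ± 0.06 and -0.05 ± 0.07, and COL4A2 -0.14 ± 0.06 and -0.07 ± 0.07. COL1A1 (-0.28 ± 0.06 and -0.15 ± 0.10), COL5A1 (-0.07 ± 0.07 and -0.24 ± 0.08), COL8A1 (-0.22 ± 0.06 and -0.27 ± 0.07), COL18A1 (-0.19 ± 0.06 and -0.12 ± 0.07), COL6A1 (-0.29 ± 0.07 and -0.26 ± 0.08), COL4A5 (-0.28 ± 0.07 and -0.27 ± 0.09) and COL27A1 (-0.13 ± 0.07 and -0.47 ± 0.10) also stayed below the limit. Both treatments share their untreated libraries within each line.

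**Figure D5:**
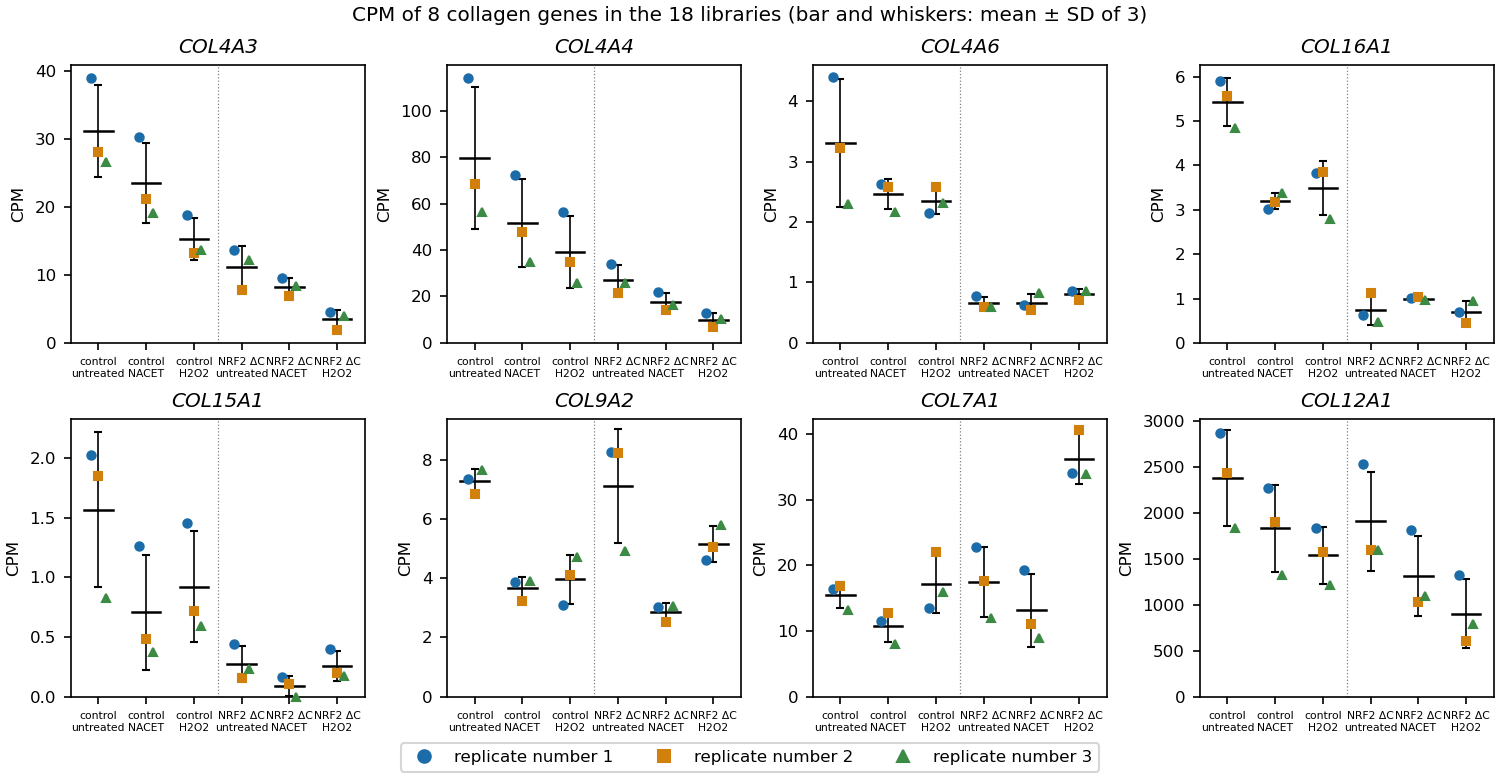
CPM of 8 collagen genes in the 18 libraries, by group, with the mean and SD of 3 and a symbol for each replicate number. COL4A3, COL4A4, COL4A6, COL16A1 and COL15A1 are lower in untreated NRF2 ΔC cells than in untreated control cells, and COL7A1 is highest in NRF2 ΔC cells with H2O2, at 33.9 to 40.6 CPM.

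Whether a response differed between the lines was tested as an interaction, given here as the log2 change in control cells minus that in NRF2 ΔC cells. No collagen gene passed an adjusted p of 0.05 with edgeR, for NACET or for H2O2. Unadjusted p below 0.05 was reached by 1 and 2 of the 21, against 1.63 % and 5.76 % of all genes. DESeq2 also called none. Over all genes 0.0643 % passed for NACET and 0.0214 % for H2O2. When the fit was blocked on the replicate number within each line, none passed for NACET (0.9 % over all) and 3 of 21 passed for H2O2 (6.91 %). These were COL7A1 (-0.95 ± 0.21, adjusted p = 0.00958), COL12A1 (0.49 ± 0.12, adjusted p = 0.0174) and COL4A3 (0.66 ± 0.16, adjusted p = 0.0187). COL12A1 went from 2873, 2430 and 1832 to 1831, 1570 and 1210 CPM in control cells and from 2527, 1595 and 1597 to 1322, 603 and 790 CPM in NRF2 ΔC cells. In this fit the 2 genes with a positive value had the larger fall in NRF2 ΔC cells, and COL7A1 the larger rise there. COL4A4 (0.40 ± 0.13, adjusted p = 0.0667) and COL8A2 (-1.09 ± 0.36, adjusted p = 0.0712) did not pass. The response of COL1A1 to H2O2 differed by -0.01 ± 0.15 and that of COL5A1 by 0.07 ± 0.13.

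The other genes of the collagen pathway were counted from 7 lists with 75 genes in the files. Between the untreated lines 1 of 60 tested was higher (0.729 % of all genes) and 3 were lower (3.12 %) in NRF2 ΔC cells. The gene that was higher was MMP1, an interstitial collagenase that entered the test through its NRF2 ΔC libraries. It lay between 0.927 and 8.26 CPM in NRF2 ΔC cells and at or below 0.167 CPM in control cells over all conditions. LOXL4, a lysyl oxidase, was lower (10.8 to 23.2 CPM in control and 1.30 to 4.15 CPM in NRF2 ΔC cells over all conditions; -2.61 ± 0.17 untreated, adjusted p = 1.11e-04), as were P4HA3, a prolyl hydroxylase subunit (-1.65 ± 0.35, adjusted p = 0.0335), and CTSK, the collagen-cleaving cathepsin K (-0.85 ± 0.14, adjusted p = 0.0116). P4HA3 entered the untreated test through its control libraries. It was at 2.55, 2.68 and 1.70 CPM there and at 0.927, 0.430 and 0.879 CPM in untreated NRF2 ΔC cells. None of the 10 folding and export genes passed in these comparisons. With NACET 2 of 61 were higher (0.895 % of all genes) and 4 lower (3.86 %), and with H2O2 3 of 62 were higher (1.41 %) and 8 lower (4.2 %). PLOD3, a lysyl hydroxylase, was higher in both (0.62 ± 0.09 and 0.66 ± 0.11), and the inhibitors TIMP2 (-0.63 ± 0.15) and TIMP3 (-0.71 ± 0.15) were lower and TIMP1 (0.85 ± 0.16) higher with H2O2. LOXL4, P4HA3 and CTSK were lower and MMP1 was higher with either treatment too, TIMP4 was lower with both (0.460 to 1.40 CPM in the control line and at most 1 count in any library of the NRF2 ΔC line, so that it entered the test through the control libraries), and the propeptidase ADAMTS3 (-1.08 ± 0.27) and the matrix protein FBLN2 (-1.58 ± 0.38) were lower with H2O2. FBLN2 also entered the test through its control libraries. It lay between 0.552 and 1.67 CPM in the control line and 0.164 and 0.430 CPM in the NRF2 ΔC line.

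H2O2 lowered several enzymes and matrix partners. In control cells 7 of 60 pathway genes fell (3.37 % of all genes) and 2 rose (2.96 %), and in NRF2 ΔC cells 8 fell (5.55 %) and 1 rose (4.26 %). With the block 11 fell (5.97 %) and 3 rose (4.26 %) in control cells, against 14 (11.5 %) and 3 (7.26 %) in the NRF2 ΔC line. P4HA1, the main catalytic subunit of prolyl 4-hydroxylase (-0.76 ± 0.17, adjusted p = 0.0245), PLOD2, a lysyl hydroxylase of cross-link sites (-0.84 ± 0.19, adjusted p = 0.0282), and LOXL4 (-0.74 ± 0.13, adjusted p = 0.0131) fell in control cells. In NRF2 ΔC cells, where they were not called, PLOD2 went from 773, 439 and 445 to 416, 236 and 179 CPM. P4HA1 went there from 245, 158 and 172 to 158, 109 and 76.1 CPM. For the H2O2 interaction 0 of 63 pathway genes passed (0.0214 % of all genes). With the block within each line 3 passed (6.91 %). PCOLCE, an enhancer of propeptide removal, fell in both lines (-0.97 ± 0.23 and -0.85 ± 0.22), as did the basement membrane protein NID2 (-0.70 ± 0.15 and -0.95 ± 0.22), the collagen receptor DDR1 (-0.63 ± 0.15 and -0.64 ± 0.15) and TIMP3 (-0.80 ± 0.16 and -0.70 ± 0.19). GLT25D2, a collagen galactosyltransferase, rose in both (0.92 ± 0.23 and 0.87 ± 0.21), and PCOLCE2 rose in control cells (0.70 ± 0.16). The other genes that fell in NRF2 ΔC cells were ADAMTS3 (-1.10 ± 0.23), the integrin chain ITGA1 (-0.89 ± 0.22), FN1, the gene for fibronectin (-0.95 ± 0.23), and THBS1, the gene for thrombospondin (-1.30 ± 0.20). With NACET 1 of 59 rose (1.39 % of all genes) and 1 fell (1.35 %) in control cells, PCOLCE2 (1.11 ± 0.17, adjusted p = 0.0202) and TIMP3 (-1.07 ± 0.17, adjusted p = 0.0202). No pathway gene of 59 passed with NACET in NRF2 ΔC cells in edgeR. There 11 of the 59 had an unadjusted p below 0.05, as had 18.6 % of all genes. With the block 5 rose (3.67 % of all genes) and 3 fell (5.15 %).

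The labelled cell type was checked against markers. Of 13 RPE markers 8 reached 1 CPM in some library, with MITF at 64.8 to 185 CPM and OTX2 at 107 to 181 CPM, whereas RPE65, RGR and TTR stayed at or below 0.0976 CPM and RLBP1 at or below 0.393 CPM. Other RPE markers lay between, with LRAT at 2.42 to 6.96, RDH5 at 2.27 to 15.3, TYRP1 at 2.41 to 13.2 and BEST1 at 0.185 to 3.53 CPM. RPE65, RLBP1, RGR, TTR and TYR (at most 0.500 CPM) were thus at or near 0, whereas the other markers of the list reached 1 CPM. Keratins 8 and 18 were present (KRT8 425 to 684 CPM). Of 10 fibroblast or mesenchymal markers 6 reached 1 CPM, and THY1, DCN and LUM stayed at or below 0.0880 CPM. The summed mesenchymal level, of which VIM made up 4130 to 6869 CPM, was 6231 to 7311 CPM in untreated and 4590 to 5811 CPM in H2O2-treated control cells, and 6714 to 7207 and 5156 to 6533 CPM in NRF2 ΔC cells. The summed RPE markers, mostly MITF and OTX2, were at 334 to 360 and 262 to 286 CPM in control cells, and at 295 to 360 and 196 to 251 CPM in NRF2 ΔC cells. With NACET they were at 253 to 272 CPM in control and 213 to 230 CPM in NRF2 ΔC cells, below all untreated libraries of the same line. Epithelial markers went from 1194 to 1220 down to 870 to 920 CPM in control cells and from 1150 to 1303 down to 873 to 984 CPM in NRF2 ΔC cells with H2O2, and were at 1034 to 1145 and 1052 to 1245 CPM with NACET. Single markers went the other way with H2O2. ACTA2 was at 80.2 to 93.7 CPM untreated and 119 to 129 CPM with H2O2 in control cells, and at 69.1 to 79.0 and 121 to 180 CPM in NRF2 ΔC cells. BEST1 was at 0.390 to 0.506 and 1.34 to 1.65 CPM in control cells, and at 0.185 to 0.341 and 2.92 to 3.53 CPM in NRF2 ΔC cells. The part of these markers in the collagen differences was not tested. Between the lines TAGLN, an actin-binding mesenchymal marker, was at 18.2 to 81.4 CPM in control and 4.68 to 9.02 CPM in NRF2 ΔC cells, and endothelial markers summed to 1.61 to 2.46 CPM in untreated control and 0.352 to 1.12 CPM in untreated NRF2 ΔC cells. Their part in the line differences was likewise not tested. Blood markers summed to at most 0.117 CPM. In bulk RNA, fewer cells that express a gene and less RNA per cell cannot be told apart.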

How the data were processed

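Poly(A) RNA was sequenced single-end without strand information. Per the labels and the study's methods, the authors mapped reads to hg19 with TopHat 2.1.0, counted reads over exons with HTSeq-count 0.11.2 and removed rRNA genes, and the deposited files hold these raw counts; the annotation is not given in the sources used here. The 5 summary lines of each file were left out. CPM values were scaled by TMM over the 18 libraries, and CPM per kb used the canonical GENCODE v44 transcript in GRCh37. Each pair of groups was compared on its own 6 libraries with edgeR 4.0.16 in R 4.3.3 (quasi-likelihood test, filterByExpr, TMM, Benjamini-Hochberg over all genes tested), and calls needed an adjusted p below 0.05 and a log2 fold change of 0.6 or more in size. Interactions used 12 libraries and the adjusted p alone. Deviations from group means of same-numbered libraries correlated at 0.4 to 0.799 within a cell line over 12848 genes, so the numbers pair treated and untreated libraries there, and the blocked values are given beside the results. Members called in any comparison or with a group mean of at least 10 CPM were named, as were called pathway genes. The members and lists were chosen with earlier results of these data known. Alternatives were DESeq2 1.42.0, other size factors, no filter, no fold limit, 1 fit of all samples, the replicate block and leaving out each library. The fits were tested on simulated data.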

Additional observations from a re-analysis of the deposited data

Results flagged for a closer look

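For 3 collagen genes the response to H2O2 differed between control and NRF2 ΔC cells by edgeR's test of the interaction with the replicate number as a block within each line. The values are the log2 change in control cells minus that in NRF2 ΔC cells, over 12 libraries. COL7A1 had -0.95 ± 0.21 (adjusted p = 0.00958), COL4A3 had 0.66 ± 0.16 (adjusted p = 0.0187) and COL12A1 had 0.49 ± 0.12 (adjusted p = 0.0174). Without the block the values were -0.90 ± 0.32, 0.63 ± 0.40 and 0.44 ± 0.40, and none of the 3 passed (adjusted p = 0.674, 0.919 and 0.923). The background with the block was 6.91 % of all genes tested.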

How the results depend on the processing

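COL16A1, COL4A3 and COL4A6 stayed called between the lines in all 3 conditions under each alternative, and none of the 22 called differences, over genes and comparisons, changed direction under any. With H2O2 COL16A1 entered that test through its control libraries. The count of collagen genes called moved as follows. For NACET in control cells it was 2, with 1 in 1 fit of all 18 samples, 5 with the replicate block and 0 to 1 when a library was left out. Over all genes 376 were called, with 418, 1026 and 31 to 337 in these settings. For H2O2 in control cells it was 2, with 10 under the replicate block and 0 (without H2O2 replicate 2) to 6 (without untreated replicate 3) when a library was left out. The same counts over all genes were 867, 1400, 290 and 1047. For NACET in NRF2 ΔC cells it was 1, with 3 under the block and 0 to 1 without a library. Calls over all genes were 188, with 1195 under the block and 0 to 462 without a library. For H2O2 in NRF2 ΔC cells it was 3, with 6 in DESeq2, 6 without the filter on low counts, 5 in 1 fit of all samples, 9 with the block, and 0 (without H2O2 replicate 2) to 10 (without H2O2 replicate 1) when a library was left out. In the same order the counts over all genes were 1329, 1713, 1484, 1990, 2538, 275 and 2582. Between the untreated lines it was 5, and 3 to 6 when a library was left out (528, and 261 to 901, over all genes). Between the lines with NACET it was 4, with 6 in 1 fit of all samples and 3 to 4 when a library was left out. Calls over all genes there were 648, with 807 and 320 to 917. Between the lines with H2O2 it was 5, and 4 (without NRF2 ΔC replicate 2) to 12 (without NRF2 ΔC replicate 1) when a library was left out. These fits called 763, 400 and 2416 of all genes. The cause of these shifts was not tested. Across the lines replicate 1 correlated at 0.627 to 0.693 and replicate 3 at 0.437 to 0.619, but replicate 2 at -0.292 to -0.0265. Whether the numbers pair samples across the lines is thus not settled. A block there gave 6 collagen calls untreated, 7 with NACET (4 without it) and 9 with H2O2. Over all genes it gave 843, 1018 and 1524 calls. The interaction with H2O2 went from 0 to 3 with the block within each cell line, and the one with NACET stayed at 0 in each alternative. The least-counted detected gene, COL15A1, had 239 counts in all.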
